A study of Mus musculus with 6 samples.

Results

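The hnRNP and SR genes are the best known families of trans-acting splicing factors. The set examined here holds every protein-coding mouse gene whose symbol starts with Hnrnp or Srsf, plus Tra2a and Tra2b, which encode the transformer-2 proteins. These are 33 genes, 20 hnRNP and 13 SR genes with the Tra2 pair counted among the SR genes, of 21951 protein-coding genes and 55450 genes in all. The study compared polyadenylated RNA of Hoxd12-/- mouse embryonic stem cells, 3 libraries, with that of Wild Type cells, 3 libraries. All cells are of strain C57BL6, carry E3.5 embryo as their stage, and were grown in mES+2i medium, in which inhibitors of MEK and GSK3 keep stem cells naive. No label gives the clone or the kind of mutation behind the knockout. Nor is it stated that replicates were separate cultures, and the p-values below therefore reflect differences among these libraries that could be technical.

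SR proteins bind exonic enhancers through their RNA recognition motifs and recruit the spliceosome through a domain rich in arginine and serine. HnRNP proteins coat nascent transcripts, often silence exons in opposition to SR proteins, and also act in mRNA export, stability and translation. Both families are abundant in embryonic stem cells, and many of their genes limit their own output through so-called poison exons, whose inclusion places an early stop codon in the mRNA and sends it to nonsense-mediated decay (NMD).

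Library totals were 5412577 to 6280934 expected counts in the knockout and 5789159 to 6263828 in wild type, at which 3 counts correspond to 0.478 to 0.554 CPM (counts scaled to a common library size), for counting error only. Hoxd12 had 0 counts in all 6 libraries, so that the knockout label could not be checked by its transcript. The 10 embryonic stem cell markers summed to 8907 to 8943 CPM in knockout libraries, against 8420 to 8942 CPM in wild-type libraries. Of them 1 was called higher and 1 lower (edgeR adjusted p below 0.05), where 26.5% of all genes tested were called. Primitive endoderm markers summed to 223 to 234 CPM in the knockout and 234 to 242 CPM in wild type. Of 4 tested, 2 were called higher and 1 lower. Of 4 tested trophectoderm markers 0 were called, and of 2 tested blood and nerve markers 1 was lower. Of 12 fibroblast markers 4 (Col3a1, Dcn, Lum and Postn) were at 0 in every library, and the list summed to 18.8 to 23.7 CPM in the knockout and 24.3 to 30.6 CPM in wild type. Of 4 tested fibroblast markers 1 was called lower and 0 higher. The 10 markers of the 2-cell-like state summed to 2.07 to 3.51 CPM in the knockout and 24.4 to 30.2 CPM in wild type. Of 3 tested 3 were called lower, and the part of this state in the results below was not tested. Knockout replicate 2 stood apart. Its count table differed from those of the other knockout libraries by 11.8 and 13.4 times the variance expected from counting, where the pairs without it lay at 1.98 to 2.50. It held 1.63% of its counts in 1 ribosomal RNA locus, CT010467.1, against 0.102% to 0.139% in the other libraries. Without that locus the pairs with knockout replicate 2 still lay at 5.63 and 6.86.

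The poison exons of the SR genes are shown first, because the deposited gene length used below depends on which transcripts are taken to be present. Of the 33 genes, 21 have at least 1 transcript annotated as an NMD target in GENCODE M21, 10 among hnRNP genes and 11 among SR genes. In 10 genes, 8 of them SR genes, such a transcript carries an exon that is absent from the transcript with the longest reading frame and in which the frame meets a stop. The frame within that exon, from GENCODE M21 transcripts, is written here 5′ to 3′ in lower case up to the stop codon, which is in capitals. Shown are Srsf6, Tra2b, Srsf11 and Srsf7, the genes with such an exon whose deposited lengths had the smallest p-values, together with Tra2a, the member with the largest log2 fold change of level, and Srsf3, a classical case of self-regulation. For Srsf11 and Tra2b, which have more than 1 such NMD transcript, the longest is used.
Srsf6 (chr2:162932815-162933082, plus strand, GRCm38, exon of 268 bases): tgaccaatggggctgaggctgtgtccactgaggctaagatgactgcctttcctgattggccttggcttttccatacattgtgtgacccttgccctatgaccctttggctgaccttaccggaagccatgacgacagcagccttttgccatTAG
Tra2a (chr6:49252803-49253108, minus strand, exon of 306 bases): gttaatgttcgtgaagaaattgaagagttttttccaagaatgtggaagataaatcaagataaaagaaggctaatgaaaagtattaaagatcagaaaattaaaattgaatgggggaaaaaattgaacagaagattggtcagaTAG
Tra2b (chr16:22258986-22259261, minus strand, exon of 276 bases): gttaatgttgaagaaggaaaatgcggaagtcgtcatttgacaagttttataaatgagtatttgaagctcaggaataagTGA
Srsf11 (chr3:158024123-158024231, minus strand, exon of 109 bases): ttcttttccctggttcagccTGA
Srsf7 (chr17:80204622-80205081, minus strand, exon of 460 bases): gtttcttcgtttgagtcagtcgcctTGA
Srsf3 (chr17:29039454-29039909, plus strand, exon of 456 bases): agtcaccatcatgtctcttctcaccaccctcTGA
The stop followed 149 bases of frame in the Srsf6 exon and 141 bases in the Tra2a exon. It came after 20 bases in Srsf11 and 25 bases in Srsf7. The Tra2a and Tra2b exons open with the same short run, gttaatgtt.

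Most members were well expressed. On the TPM scale, which is per length and allows genes to be compared, the mean level over all 6 libraries was highest for Hnrnpa2b1 (578 TPM) and Hnrnpa1 (551 TPM), followed by Hnrnpab (349), Hnrnpk (336) and Hnrnpf (325). The order of these last genes depended on the group: Hnrnpab, Hnrnpk and Hnrnpf averaged 335, 349 and 353 TPM in the knockout and 363, 323 and 297 TPM in wild type. Hnrnpa2b1 and Hnrnpa1 encode closely related proteins that silence exons, and their TPM ranges overlapped. The most abundant SR genes were Srsf2 at 321 TPM, Srsf3 at 193 TPM and Srsf7 at 164 TPM. Srsf12 was the one member near the detection limit, at 1.09 TPM. Summed over 13 genes, SR transcripts reached 1449, 1327 and 1470 TPM in the knockout libraries and 1248, 1183 and 1220 TPM in the wild-type libraries. All knockout sums lay above all wild-type sums. The 20 hnRNP genes summed to 4142, 3794 and 4294 TPM in the knockout and to 3814, 3607 and 3630 TPM in wild type. On this scale knockout replicate 2 lay within the wild-type range. These sums use the deposited TPM, without the library scaling applied to the CPM values of members below. The log2 ratio of the means was 0.22 for SR genes and 0.15 for hnRNP genes, while the median gene tested was itself 0.10 higher in the knockout on log2(TPM + 1).

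The design asks how the transcriptomes of the genotypes differ, and in the main fit most of the called members showed small rises. All 33 members passed the count filter. Of them 11 rose in the knockout, 1 fell and 21 were not called (quasi-likelihood test of edgeR, p adjusted after Benjamini and Hochberg over all 12891 genes tested, threshold 0.05). Over all genes, 26.5% were called, 12.1% higher and 14.4% lower, and of the members 33.3% were higher and 3.03% lower. Because members are abundant, the same shares were taken over the 3478 genes with a mean of at least 50 CPM, a limit chosen after seeing the data. There 46.6% were called, 16.7% higher and 29.9% lower, and of 28 members above the limit 11 were higher and 1 was lower. The median log2 fold change of the members was 0.10, against 0.02 over all genes tested. After a loess correction of each fold change for transcript length and GC (the length and GC correction), these medians were 0.06 and -0.0006. In that fit 4 members were higher and 3 lower, against 9.91% and 12.9% of all genes. The groups did not overlap in 18 members, 15 with all knockout libraries above and 3 with all below, where 39.7% of all genes did not overlap, 19.6% with the knockout above and 20% below. At 50 CPM or more 17 of 28 members did not overlap, 14 above and 3 below, against 56.6% of all such genes, 21.4% above and 35.3% below.

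**Figure D1:**
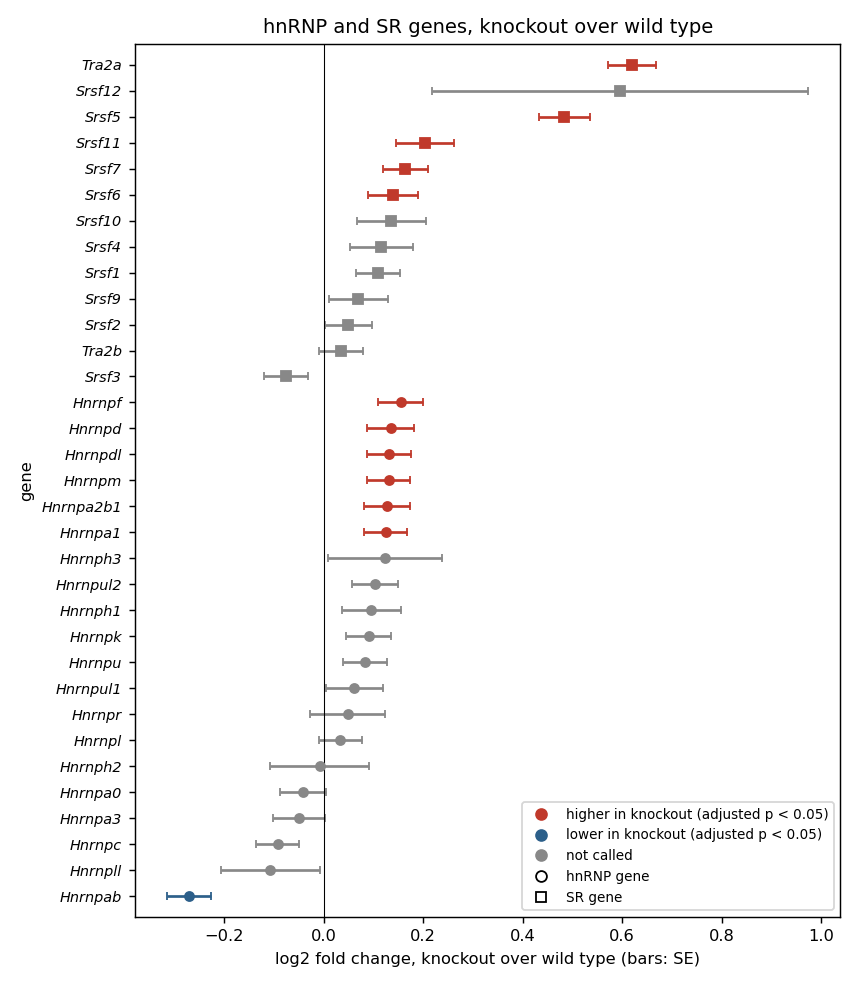
Log2 fold change of level, knockout over wild type, with its SE for 13 SR genes (squares) and 20 hnRNP genes (circles), coloured by edgeR's call at an adjusted p below 0.05. Tra2a and Srsf5 stand apart from the other called members, whose changes lie between -0.27 and 0.20; the wide bar of Srsf12 belongs to the member with the lowest level.

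Among called members Tra2a and Srsf5 rose most. Tra2a, whose protein activates exons that carry GAA-rich enhancers, had 182, 184 and 181 CPM in the knockout libraries, against 116, 118 and 122 CPM in the wild-type libraries. No knockout library came near the wild-type range. Knockout libraries averaged 182 ± 1.20 CPM and wild-type libraries 119 ± 2.87 CPM (SD, n = 3 each), a 1.54-fold rise (log2 fold change 0.62, SE 0.05, edgeR adjusted p = 7.48e-12). Srsf5, which encodes a classical SR protein, had 180, 165 and 183 CPM in knockout libraries and 130, 121 and 127 CPM in wild-type libraries. Again the groups did not overlap, with means of 176 ± 9.33 and 126 ± 4.60 CPM in knockout and wild type (1.40-fold, log2 fold change 0.48, SE 0.05, edgeR adjusted p = 6.33e-09). Tra2a (ENSMUSG00000029817) lies on chromosome 6 from 49243924 to 49264033 and Srsf5 (ENSMUSG00000021134) on chromosome 12 from 80945504 to 80950507, GRCm38. Tested genes of chromosome 6 had a median log2 fold change of 0.16, and the 42 tested genes within 5 Mb of Tra2a one of 0.26. Relative to those neighbours Tra2a was 0.36 higher, and with the chromosome median subtracted it was still called at 0.46 (edgeR adjusted p = 4.84e-09, largest over its alternatives 0.000271). Chromosome 12 and the neighbours of Srsf5 had medians of 0.01 and -0.02. Both genes were called in all alternatives that tested them, 17 for Tra2a and 18 for Srsf5.

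The paralogue Tra2b moved little. It had 186, 186 and 183 CPM in the knockout and 181, 182 and 179 CPM in wild type. These groups lay side by side without overlap, yet the fold change was 1.02 (log2 0.03, SE 0.04, edgeR adjusted p = 0.619). A transcript length offset and limma on TPM, which take the shorter deposited length of Tra2b into account, called it higher.

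Smaller rises were found in 3 other SR genes. Srsf7, whose protein works with Srsf3 in mRNA export, had 232, 213 and 222 CPM in the knockout and 207, 193 and 197 CPM in wild type (log2 fold change 0.16, SE 0.05, edgeR adjusted p = 0.00721). Its lowest knockout value exceeded the highest wild-type value by a small margin. Srsf11, an SR-related protein of the early spliceosome, had 113, 110 and 119 CPM against 105, 99.0 and 92.8 CPM in knockout and wild type (0.20, SE 0.06, edgeR adjusted p = 0.00840). Srsf6 had 228, 210 and 215 CPM in the knockout and 209, 202 and 181 CPM in wild type (0.14, SE 0.05, edgeR adjusted p = 0.0387), with the closest libraries of the groups almost equal. DESeq2 called none of these 3 genes. The tested genes within 5 Mb had median log2 fold changes of 0.11 around Srsf7, 0.11 around Srsf11 and 0.02 around Srsf6. Relative to those neighbours Srsf7 was 0.06 higher, Srsf11 0.10 and Srsf6 0.12.

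Of the remaining SR genes, Srsf1, the founding member of the family, had a log2 fold change of 0.11 (edgeR adjusted p = 0.0719). Srsf2 had 0.05, Srsf4 0.12, Srsf9 0.07 and Srsf10, which acts as a splicing repressor when dephosphorylated, 0.14. None of these passed the test. Srsf3 was the 1 SR gene with a value below 0, at -0.08 (edgeR adjusted p = 0.220). Srsf12 had 19, 13 and 16 expected counts in the knockout and 11, 12 and 8 in wild type, too few for its 1.51-fold difference to pass (edgeR adjusted p = 0.262). Srsf1 and Srsf2 lie on chromosome 11, whose tested genes had a median of -0.12. With the chromosome median subtracted both were called, Srsf1 at 0.23 and Srsf2 at 0.17. After the length and GC correction, Srsf2 was called higher at 0.14 and Srsf3 lower at -0.15 (edgeR adjusted p = 0.0296 and 0.0152).

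**Figure D2:**
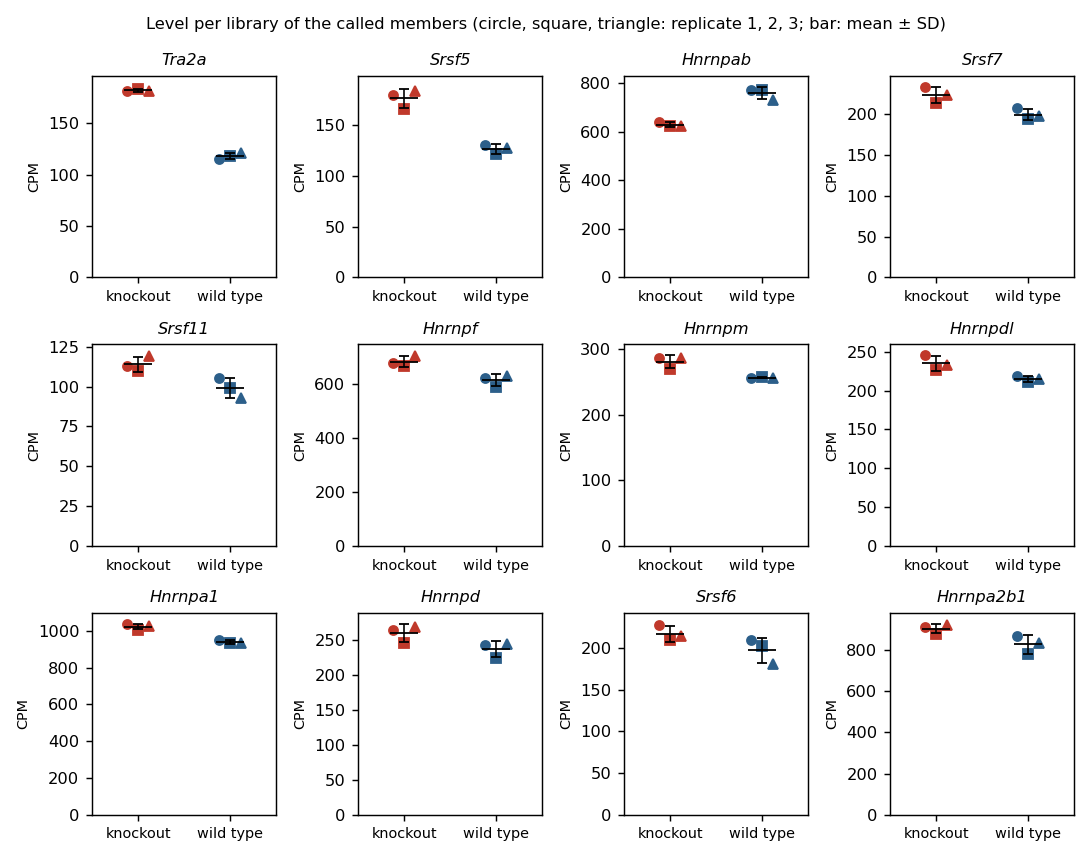
CPM per library of the 12 called members, knockout left and wild type right, with replicates 1, 2 and 3 as circle, square and triangle and the mean ± SD as a bar (n = 3 each, axes from 0). Tra2a and Srsf5 show gaps that are large against the spread, Hnrnpab is the one member lower in the knockout, and the other 9 differ by 15.2% or less.

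Among hnRNP genes 6 rose, each by 9.02% to 11.3%, and Hnrnpab fell. Of the 6, DESeq2 called Hnrnpa1 and Hnrnpf, and after the length and GC correction none was called (edgeR adjusted p from 0.102 for Hnrnpf to 0.488 for Hnrnpdl). Hnrnpf, whose protein binds runs of G, had 675, 666 and 704 CPM in knockout libraries and 621, 587 and 630 CPM in wild-type libraries (log2 fold change 0.15, SE 0.05, edgeR adjusted p = 0.0104). Hnrnpa1 had 1036, 1007 and 1029 CPM in the knockout against 949, 932 and 937 CPM in wild type (0.12, SE 0.04, edgeR adjusted p = 0.0299). In both genes the groups were separate. Hnrnpa2b1 had 911, 877 and 919 CPM in the knockout and 869, 778 and 834 CPM in wild type (0.13, edgeR adjusted p = 0.0412), where knockout replicate 2 exceeded wild-type replicate 1 by little. Hnrnpf and Hnrnpa2b1 lie on chromosome 6. With its median of 0.16 subtracted, Hnrnpf stood at -0.002 and Hnrnpa2b1 at -0.03, and neither was called.

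Hnrnpd and Hnrnpdl, neighbouring paralogues on chromosome 5 both rose; the protein of Hnrnpd destabilises AU-rich mRNAs. Hnrnpd had 265, 245 and 269 CPM in the knockout and 243, 224 and 244 CPM in wild type (0.13, edgeR adjusted p = 0.0304), and Hnrnpdl 245, 227 and 233 CPM in the knockout and 219, 211 and 215 CPM in wild type (0.13, edgeR adjusted p = 0.0250). Each pair of groups was separate by a narrow gap. DESeq2 called neither (adjusted p = 0.152 for both), and after the length and GC correction Hnrnpd stood at 0.10 and Hnrnpdl at 0.05, not called. Hnrnpm, a factor of GU-rich sites, had 286, 269 and 286 CPM in knockout libraries and 256, 257 and 256 CPM in wild-type libraries (0.13, edgeR adjusted p = 0.0243). Its direction depended on the length used, with -0.05 under a transcript length offset (edgeR adjusted p = 0.667, the largest over its alternatives). Hnrnpm overlaps March2 on the same strand, and the strand setting of the counting is not given in the sources used here.

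Hnrnpab, a paralogue of Hnrnpd, had 639, 621 and 624 CPM in the knockout and 771, 772 and 730 CPM in wild type. Every knockout library was well below every wild-type library. Knockout libraries averaged 628 ± 9.62 CPM and wild-type libraries 758 ± 23.9 CPM (SD, n = 3 each), a fall of 17.1% (log2 fold change -0.27, SE 0.04, edgeR adjusted p = 1.71e-05). Hnrnpab (ENSMUSG00000020358) lies on chromosome 11 from 51600100 to 51606847. The 71 tested genes within 5 Mb had a median of -0.11, and with the median of chromosome 11 subtracted Hnrnpab stood at -0.15 and was still called (edgeR adjusted p = 0.0131). Phykpl, which overlaps it on the opposite strand, also fell (-0.59, edgeR adjusted p = 0.00428), with means of 11.3 CPM in knockout and 16.9 CPM in wild-type libraries. On log2(TPM + 1) Hnrnpab was not called (-0.12, limma adjusted p = 0.274, range over its alternatives 2.93e-08 to 0.276).

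The other 13 hnRNP genes were not called. Hnrnpk, which binds runs of C, had 537, 540 and 556 CPM in the knockout and 521, 522 and 490 CPM in wild type (0.09, edgeR adjusted p = 0.140). Hnrnpc, which binds runs of U, had 451, 453 and 446 CPM in the knockout and 481, 480 and 477 CPM in wild type (-0.09, edgeR adjusted p = 0.115), with all knockout libraries below all wild-type libraries. Hnrnpu, Hnrnpul1, Hnrnpul2, Hnrnpr, Hnrnpl, Hnrnph1 and Hnrnph3 had log2 fold changes between 0.03 and 0.12. Hnrnpa0, Hnrnpa3, Hnrnph2 and Hnrnpll lay between -0.11 and -0.01. With the chromosome median subtracted Hnrnph1, on chromosome 11, was called at 0.22, Hnrnpul2 at 0.12 and Hnrnpc at -0.14 (edgeR adjusted p = 0.00644, 0.0485 and 0.0187), and Hnrnpc was also called lower at -0.14 after the length and GC correction. Hnrnpa1 and other members have processed pseudogene copies, so that reads of such copies can enter their counts.

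The number of small rises depended on the settings. DESeq2 called 4 of 33 members higher and 1 lower, against 5.44% and 9.98% of all genes. Without a count filter edgeR called 5 and 1, against 6.03% and 7.26% of all genes. After the length and GC correction edgeR called 4 and 3, against 9.91% and 12.9% of all genes. With knockout replicate 1 left out 4 members were higher, with knockout replicate 2 left out 13 and with knockout replicate 3 left out 6. The shares of all genes called higher in these fits were 8.51%, 10.8% and 8.5%. With wild-type replicates 1, 2 and 3 left out in turn the numbers were 9, 4 and 6, against 9.64%, 8.76% and 8.75% of all genes. In each fit with 1 library left out 1 member was lower, against 11.3% to 13.5% of all genes.

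The promoters of the 3 called members with the largest changes are given because Tra2a and Srsf5 moved one way and Hnrnpab the other. They are RefSeq sequences of GRCm38.p6, from 250 bases before to 50 bases after the start, 5′ to 3′, with 31 of 33 members matched in that table. Capitals mark the motifs searched on both strands, which do not overlap each other in these windows: the CCAAT box was searched as CCAAT and its reverse complement, the GC box as GGGCGG, the E-box as CACGTG and the TATA box as TATAAA, each with its reverse complement.
Tra2a (chr6:49264003-49264302, minus strand): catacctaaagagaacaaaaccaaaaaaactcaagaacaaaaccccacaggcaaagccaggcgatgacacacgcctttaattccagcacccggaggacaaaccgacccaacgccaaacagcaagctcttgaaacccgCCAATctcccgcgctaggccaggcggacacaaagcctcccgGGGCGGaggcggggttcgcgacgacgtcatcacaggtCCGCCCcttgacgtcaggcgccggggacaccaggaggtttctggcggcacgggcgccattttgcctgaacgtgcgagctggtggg
Srsf5 (chr12:80945249-80945548, plus strand): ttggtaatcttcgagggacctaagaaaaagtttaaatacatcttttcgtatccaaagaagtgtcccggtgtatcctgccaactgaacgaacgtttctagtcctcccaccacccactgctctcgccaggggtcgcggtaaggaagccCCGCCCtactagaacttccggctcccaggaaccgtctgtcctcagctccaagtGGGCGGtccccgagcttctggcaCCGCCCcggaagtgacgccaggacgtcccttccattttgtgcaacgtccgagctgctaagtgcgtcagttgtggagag
Hnrnpab (chr11:51606832-51607131, minus strand): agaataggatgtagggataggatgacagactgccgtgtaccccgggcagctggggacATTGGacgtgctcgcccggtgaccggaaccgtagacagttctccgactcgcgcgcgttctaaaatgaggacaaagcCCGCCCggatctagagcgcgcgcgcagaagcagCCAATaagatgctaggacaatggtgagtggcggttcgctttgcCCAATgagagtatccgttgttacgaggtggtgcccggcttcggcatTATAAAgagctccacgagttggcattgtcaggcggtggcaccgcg
The Tra2a window held 2 GC boxes and 1 CCAAT box, that of Srsf5 3 GC boxes, and that of Hnrnpab 3 CCAAT boxes, 1 GC box and 1 TATA box. Of 32544 distinct promoter windows in the table, 35.9% held a GC box, 37.4% a CCAAT box, 13.6% a TATA box and 7.17% an E-box. A match is a string of letters and was not tied to any factor.

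The deposited length of a gene is given per library and lay within the range of its listed transcripts in 100% of gene and library pairs, so that it moves with the mix of transcripts assigned. It was tested on a log2 scale over 9956 genes whose length differed between libraries by more than 1 base, with limma. Of 32 members tested 0 were called longer and 0 shorter, and each of 10 alternative fits also called 0. An unadjusted limma p below 0.05 was found in 10 of the 32 members and in 1088 of all 9956 genes tested. Over all genes 0.0301% were called, 0.0201% longer and 0.01% shorter, and at 50 CPM or more 0.0675%, with 0.0337% in each direction. Hnrnpa0 has 1 transcript and was not tested. The lengths of the groups did not overlap in 13 members, 8 longer and 5 shorter in the knockout, where 16.1% of all genes tested did not overlap, 10.8% longer and 5.26% shorter. At 50 CPM or more 12 of 27 members did not overlap, 7 longer and 5 shorter, against 24.3% of all such genes, 16.4% longer and 7.89% shorter. The members described next were chosen after their values were seen.

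Srsf6, Srsf11 and Tra2b were shorter in every knockout library, as were Hnrnpd (-3.55%) and Hnrnpa1 (-0.649%). Srsf6 had 2418, 2362 and 2346 bases in the knockout against 2588, 2567 and 2614 bases in wild type, a difference of -214 bases (-8.28%, limma adjusted p = 0.0960, range over its alternatives 0.0752 to 0.265). Its listed transcripts are coding ones of 3527 and 515 bases, the NMD transcript of 1666 bases with the exon shown above, and a retained-intron transcript of 2897 bases, so that the length in both groups lies between those of the NMD and the long coding transcript. Tra2b had 2728, 2753 and 2654 bases in the knockout and 2920, 2916 and 3087 bases in wild type (-8.81%, limma adjusted p = 0.209). Its coding transcripts have 1369 and 3403 bases, and its NMD transcripts 550 to 1687 bases. Tra2b also has retained-intron transcripts of 668, 1376 and 4112 bases and a processed transcript of 946 bases. Srsf11 had 2711, 2708 and 2713 bases in knockout libraries and 2838, 2807 and 2805 bases in wild-type libraries (-3.76%, limma adjusted p = 0.0985). The knockout values of Srsf11 were almost the same. Since several mixes of transcripts give the same mean length, these values do not say which transcript changed, and 0 of these genes passed in the 10 alternatives of the length test.

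**Figure D3:**
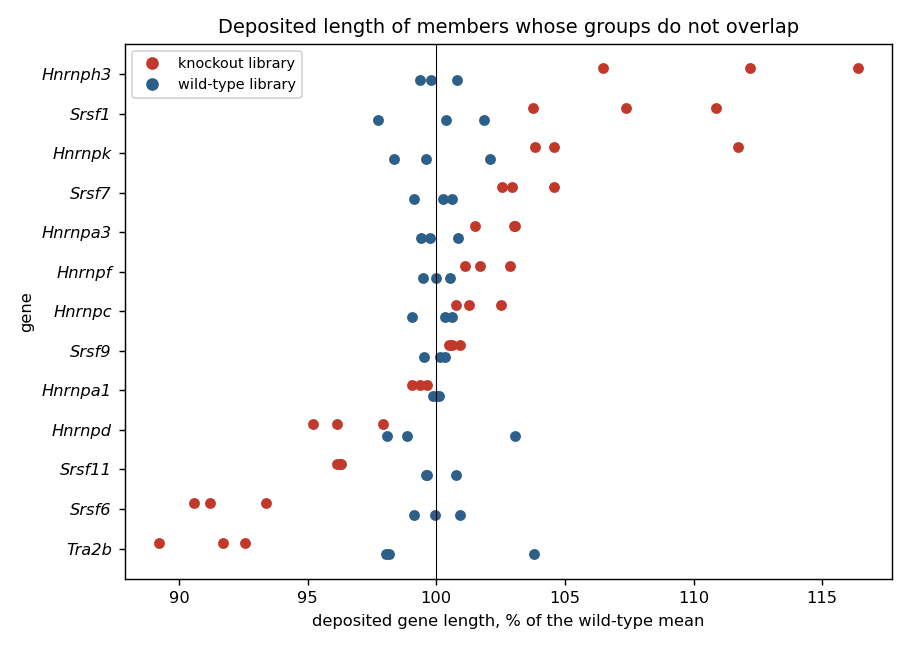
Deposited length in each library as a percentage of the wild-type mean of the gene, for the 13 members whose groups do not overlap (red knockout, blue wild type, 1 point per library). Tra2b and Srsf6 lie lowest, with changes of -8.81% and -8.28%, and Hnrnph3 highest at 11.6%; none was called by limma.

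Hnrnph3, Srsf1, Hnrnpk and Srsf7 were longer in every knockout library. So were Hnrnpa3 (2.53%), Hnrnpf (1.89%), Hnrnpc (1.52%) and Srsf9 (0.680%). Hnrnph3 had 1350, 1422 and 1475 bases in the knockout and 1278, 1265 and 1260 bases in wild type (11.6% longer, limma adjusted p = 0.217). It had 194 to 244 expected counts in knockout and 153 to 225 in wild-type libraries, fewer than Srsf1, Hnrnpk and Srsf7. Srsf7 had 1337, 1311 and 1316 bases in the knockout and 1282, 1286 and 1267 bases in wild type (3.36% longer, limma adjusted p = 0.210). Srsf1 differed by 107 bases and Hnrnpk by 101 bases. The called genes with the largest rise in level showed no such separation. Tra2a had 1829, 1832 and 1828 bases in the knockout and 1836, 1816 and 1808 bases in wild type. These lengths lie just above its coding transcripts of 1777 and 1799 bases. They lie below its NMD transcript of 2090 bases and its retained-intron transcripts of 3040 and 3788 bases. Srsf5 had 1681, 1667 and 1757 bases in the knockout and 1677, 1737 and 1642 bases in wild type. In both genes the groups overlapped in length.

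**Figure D4:**
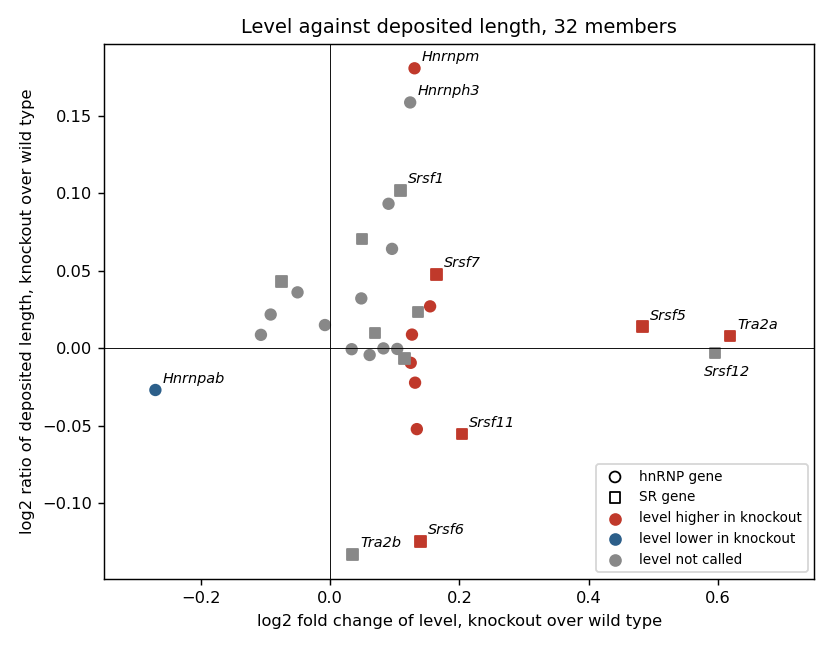
Log2 ratio of deposited length against log2 fold change of level, both knockout over wild type, for the 32 members with more than 1 length (squares SR genes, circles hnRNP genes, colour the call on level). Tra2a and Srsf5 lie far right near a length ratio of 0, while Tra2b and Srsf6 lie low, with level changes of 0.03 and 0.14.

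Genes that act with the members were taken from lists chosen with earlier results of these data known. Of 12 tested kinases, phosphatases and import receptors of SR and hnRNP proteins 4 rose and 0 fell, with a median of 0.16. Clk1, a kinase that phosphorylates SR proteins in the nucleus, changed by 0.40 (edgeR adjusted p = 1.95e-05), and the importin Tnpo3, which carries SR proteins into the nucleus, by 0.31 (edgeR adjusted p = 5.08e-05). Tnpo3 lies on chromosome 6 and the third gene, Tnpo2 (0.25), on chromosome 8, whose tested genes had a median of 0.17. Of 55 other regulators of alternative splicing 14 rose and 2 fell (median 0.08), with Ewsr1 at 0.34, Sfpq at 0.31 and Matr3 at -0.40. Of 60 tested genes listed as core spliceosome factors 4 rose and 26 fell, with a median of -0.10. The list also holds Rbmx, which is not a core factor and was not called (0.72, edgeR adjusted p = 0.0800). Sf3b5, a subunit of the branch-site complex, changed by -0.41 (edgeR adjusted p = 5.06e-08), Snrpd2, a core Sm protein, by -0.40, and Snrpa1 of the U2 particle by -0.40. Over all genes 12.1% were called higher and 14.4% lower, and above 50 CPM 16.7% and 29.9%. SR-related and exon junction proteins were split, with 7 rises and 8 falls in 28 tested, among them Rsrp1 at 0.55, Eif4a3 (chromosome 11) at -0.35 and Rbm8a at -0.28. Of 16 factors of nonsense-mediated decay, which removes poison exon transcripts, 1 rose (Upf3a, 0.27, on chromosome 8) and 2 fell (Ncbp2, -0.46, and Etf1, -0.14).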

How the data were processed

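Per the file headers, the authors deposited for each library 5 values per gene: expected count, TPM, FPKM, length and effective length. The deposited expected counts are estimates with decimals, unscaled for depth. TPM and FPKM values deposited by the authors are scaled by length and library size; FPKM was not used. Bowtie 0.12.2, mm8 and mm10 appear in the submitters' processing notes with no step attached. Which quantifier, annotation and strand setting were used is not given in the sources used here. Each of the 55450 gene and 141767 transcript identifiers was found in GENCODE M21 (GRCm38), the source of names and coordinates.

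Counts were rounded and tested in R 4.3.3 with edgeR 4.0.16 (TMM, filterByExpr, robust quasi-likelihood test, group as the only term; common coefficient of variation 6.74%). CPM uses TMM-scaled library sizes, except marker sums and limits, which use totals. Length was tested with limma 3.58.1 (trend on mean level, robust). Benjamini-Hochberg adjusted p below 0.05 was called. The steps were tested on simulated data. Neighbours are tested genes starting within 5 Mb.

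Members, lists and the naming rule were chosen with earlier results of these data known. The rule gives library values for called members, the 5 highest by TPM, Tra2a and Tra2b, and up to 3 called genes per related list. Alternatives included DESeq2 1.42.0, limma on TPM, other scalings and filters, a replicate block, a length offset, corrections for chromosome and for length and GC content, and each library left out.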

Additional observations from a re-analysis of the deposited data

How the results depend on the processing

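Tra2a, Srsf5 and, except on TPM, Hnrnpab kept their direction and call under every alternative that tested them. The number of members called higher, 11, was 4 with DESeq2, 5 without a count filter, 4 with the length and GC correction and 4 to 13 with 1 library left out; the number called lower, 1, was 0 on log2(TPM + 1) and log2(TPM + 0.1), 0 without chromosomes 6, 8 and 11, which takes Hnrnpab itself out of the test, 2 with the chromosome median subtracted, 3 with the length and GC correction and 1 to 1 with 1 library left out. Among called members signs turned for Hnrnpa2b1 (-0.0301) and Hnrnpf (-0.00206) with the chromosome median subtracted and for Hnrnpm (-0.0507) with a length offset, and 11 members that were not called also changed sign under at least 1 alternative; the cause was not tested. Over all genes, 1559 higher and 1861 lower became 701 and 1287 with DESeq2. Without a count filter they were 1521 and 1830 of 25221 genes tested, and with the length and GC correction 1277 and 1660. On log2(TPM + 1) they were 1107 and 749 and on log2(TPM + 0.1) 1086 and 738, where the median of all genes moved to 0.10 and 0.11. Leaving out 1 library gave 1118 to 1423 higher and 1486 to 1787 lower. Lengths called longer and shorter over all genes, 2 and 1, were 4 and 3 for effective length, 8 and 5 above a mean of 50 counts, 4 and 4 without trend and robust settings, 0 and 0 with the replicate block, and 0 to 0 and 0 to 2 with 1 library left out. Same-numbered libraries did not deviate together (correlations 1.06e-05, 0.0389 and 0.0182), and not every library correlated best with its own number; the replicate block gave 11 members higher and 1 lower, 1513 and 1840 over all genes, and 0 members by length. Srsf12 had 8 to 19 expected counts per library, which limits what its difference can show.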
